A study of Mus musculus with 12 samples.

Results

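Gstm2, Gstt3 and Mgst1 were the glutathione transferase genes followed here, in the livers of mice given the antimalarial bulaquine, a derivative of primaquine, or vehicle. They were chosen by symbol after the drug-over-vehicle ratios of these arrays had been seen, Gstm2 being selected on its low ratio at 6 h, so its 6 h values are given as a description. Of 23040 spots on the array, 7 were annotated to the 3 symbols, 5 to Gstm2 and 1 each to Gstt3 and Mgst1. All 7 had a corrected intensity over 0 in both dyes on all 12 arrays, as 11749 spots of the array did, and none was lost to that filter. Each gene name depends on a pairing of spot numbers with the annotation that was inferred from the layout of the array's blocks.

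Each array set liver RNA of a bulaquine-treated group against that of a vehicle-treated group, each group being of 4 mice by the design text, with 4 arrays for the livers taken 6 h after the drug, 4 for 12 h and 4 for 24 h. The drug sample was in Cy5 on arrays F1 and F2 and in Cy3 on arrays R1 and R2. The labels give no strain, age, sex, dose or route, and do not say whether RNA was pooled, whether F1 and R1 share RNA or whether vehicle mice were shared between times. So the p-values speak only of array-to-array spread, part of which may be technical.

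Glutathione transferases join the thiol of glutathione to reactive, electron-seeking compounds, which makes these more soluble and ready for export from the cell. Gstm2 belongs to the mu class and Gstt3 to the theta class of soluble enzymes, while Mgst1 is a membrane protein of the endoplasmic reticulum and the outer mitochondrial membrane that also reduces lipid peroxides. The liver is rich in these enzymes, and many of their genes are known targets of the stress-response factor Nrf2, which binds antioxidant response elements.

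Promoter windows around the annotated start were matched for all 3 symbols in RefSeq (GRCm38.p6), and a pair is printed because Gstm2 read low at 6 h while Mgst1 read above 0 at every time. Capitals mark a match to the core of the antioxidant response element, TGACNNNGC, searched on both strands.
Gstm2, chr3:107986371-107986670, minus strand: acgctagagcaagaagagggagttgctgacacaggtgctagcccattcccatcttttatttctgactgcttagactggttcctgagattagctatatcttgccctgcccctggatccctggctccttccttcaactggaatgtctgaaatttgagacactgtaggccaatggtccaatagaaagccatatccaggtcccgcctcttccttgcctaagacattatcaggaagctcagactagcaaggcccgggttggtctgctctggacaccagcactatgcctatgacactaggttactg
Mgst1, chr6:138140277-138140576, plus strand: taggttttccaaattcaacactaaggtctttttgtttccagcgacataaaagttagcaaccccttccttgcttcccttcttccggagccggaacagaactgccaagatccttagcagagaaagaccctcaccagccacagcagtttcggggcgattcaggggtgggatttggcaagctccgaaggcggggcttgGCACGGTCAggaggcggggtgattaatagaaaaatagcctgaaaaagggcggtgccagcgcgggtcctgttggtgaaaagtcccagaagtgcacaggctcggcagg
The Mgst1 window held 1 match, on its reverse strand, which begins 56 bases before the start. These letters were not in the Gstm2 window, in either of the 2 overlapping Gstt3 windows on chromosome 10, or in the window of the other Mgst1 start. The core was present in 12.4% of 32851 mouse promoter windows of the same length. The core of the xenobiotic response element, GCGTG, was present in 32.4% of them and in none of the 5 windows of these genes, and the match in Mgst1 overlaps no copy of it.

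Of the 5 Gstm2 spots, 4 (3626, 10364, 15690 and 22368) were listed under one and the same expressed-sequence accession and 1 (12191) under others. The spots lay in 5 different blocks of the array. Their mean intensity differed widely: among the spots tested, spot 12191 stood at percentile 95.5 of brightness, 10364 at 94.1, 22368 at 92.1, 15690 at 69.5 and 3626 at 45.8. The signal-to-noise score of spot 3626 was 0.47 to 4.61 over arrays and dyes, against 8.74 to 89.1 for spot 22368 and 9.86 to 179.1 for spot 10364. Spot 12191 scored 6.44 to 84.8. Spot 15690 scored 0.885 to 16.9, so that its lowest score was close to that of spot 3626. The Gstt3 spot stood at percentile 81.8 and the Mgst1 spot at 98.2. Whether the spots also bound cDNA of close relatives in the mu class was not tested.

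At 6 h, 4 of the 5 Gstm2 spots read lower after bulaquine than after vehicle, and the dimmest did not. On arrays F1, F2, R1 and R2 in that order, spot 10364 had log2 ratios of bulaquine over vehicle of -1.87, -1.60, -0.27 and -0.29. Spot 22368 had ratios of -2.55, -1.76, 0.034 and -0.18. Spot 15690 had ratios of -2.004, -2.30, 0.098 and -0.29. In all 3 the arrays with the drug in Cy5 were far below those with the drug in Cy3, and the latter lay between -0.29 and 0.098. Spot 12191 followed the same order with a smaller span, at -1.11, -1.21, -0.22 and -0.10. Spot 3626 read -0.71, -0.22, 0.55 and 0.68, on both sides of 0.

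The fitted 6 h log2 ratios, each with its standard error and over 4 arrays, were -1.12 ± 0.21 for spot 15690, -1.11 ± 0.15 for spot 22368, -1.01 ± 0.13 for spot 10364, -0.66 ± 0.10 for spot 12191 and 0.07 ± 0.28 for spot 3626. The first 3 are levels about 2.18-, 2.16- and 2.01-fold lower. From the lowest ratio upward, spots 15690, 22368, 10364 and 12191 took places 87, 92, 132 and 448 among the 11749 spots. Spots 10364 and 22368 were called, that is, had an adjusted p under 0.05 in limma with Benjamini-Hochberg adjustment over all spots. Of the 7 spots of the 3 genes these were 2, or 28.6%, where 0.102% of all spots tested were called. Both are spots of Gstm2 listed under the same sequence, so they do not count as separate members. The count of 2 also rests on the contrast by which Gstm2 came to notice. With 1 array left out it was 0 in 9 fits, among them those without any of the 6 h arrays, and 1 in the fits without 12 h F2, 24 h R1 or 24 h R2, while the ratios of these spots lay between -1.28 and -0.94 over the 12 fits. With F1 and R1, and F2 and R2, averaged as dye swaps of the same RNA, which the labels neither state nor deny, the adjusted p was 0.566 for spot 10364 and 0.563 for spot 22368. In that fit 0 of the 7 were called, and 0 of all spots tested. With the same pairs as a random block, spots 10364 and 22368 stayed called and spot 12191 was called as well (adjusted p = 0.0329).

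**Figure D1:**
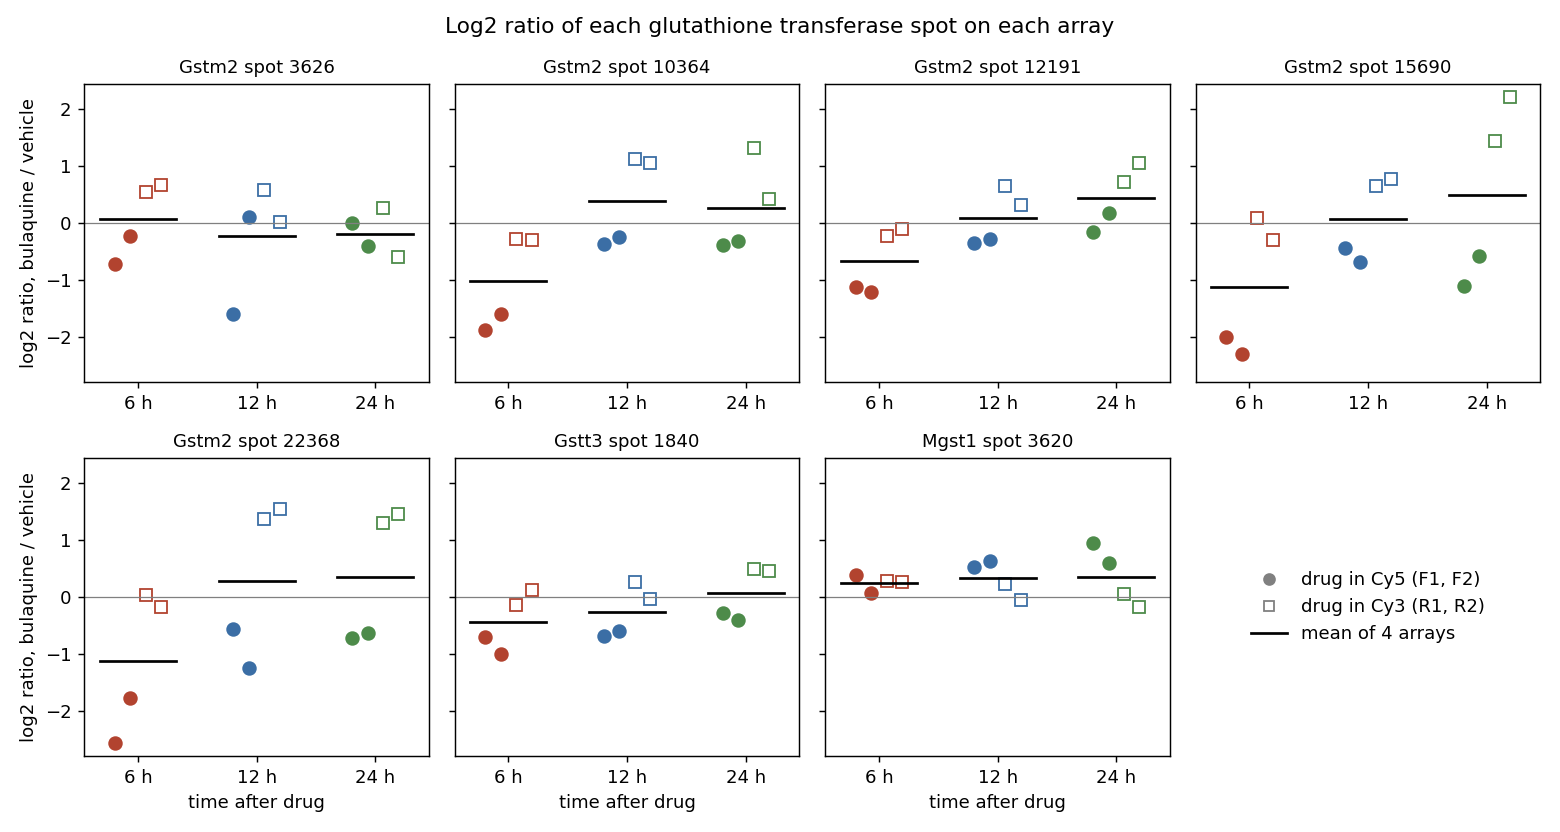
Log2 ratio of bulaquine over vehicle (y axis) for each of the 7 spots at 6, 12 and 24 h (x axis), with 1 point for each array, filled where the drug was in Cy5 and open where it was in Cy3, and a line at the mean of 4 arrays. In 4 Gstm2 panels the filled points lie below the open ones at every time, and both lie lowest at 6 h.

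The gap between dye orientations, averaged over the times, sets the dye effect of a spot in the fit. The gap and the dye effect are thus not separate findings. The fit gave each spot 1 dye effect, the log2 of Cy5 over Cy3 shared by all times, and it was -1.08 for spot 22368, -0.998 for spot 15690, -0.68 for spot 10364, -0.45 for spot 12191 and -0.36 for spot 3626. The first 2 lay at percentiles 1.45 and 1.98 of the dye effects of all spots tested. Gstt3 had a dye effect of -0.40, and Mgst1 one of 0.21 in the other direction. Without a dye effect in the fit 0 of the 7 spots were called. The 6 h ratios stayed the same, as the balanced dye orientations make certain.

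With the dye effect of the spot taken off, which removes the mean gap between orientations, the 4 arrays of 6 h came close to each other. Spot 10364 then lay between -1.19 and -0.92 at 6 h, between 0.32 and 0.46 at 12 h and between -0.25 and 0.64 at 24 h. Spot 22368 ran from -1.47 to -0.68 at 6 h, from -0.15 to 0.53 at 12 h and from 0.22 to 0.45 at 24 h. The 6 h arrays overlapped neither later time in these 2 spots, nor in spots 12191 and 15690, whereas with the dye effect kept every spot overlapped between every pair of times. In each of the 4 brighter spots all 4 array names read higher at 12 h than at 6 h, and all 4 read higher at 24 h than at 6 h. Spot 3626 did so on 2 of 4 at 12 h and on 1 of 4 at 24 h. The share of all spots tested whose times part in this way, or whose 4 names all read higher, was not computed. Gstm2 was also noticed by its low 6 h ratio, which favours such a parting from the later times.

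**Figure D2:**
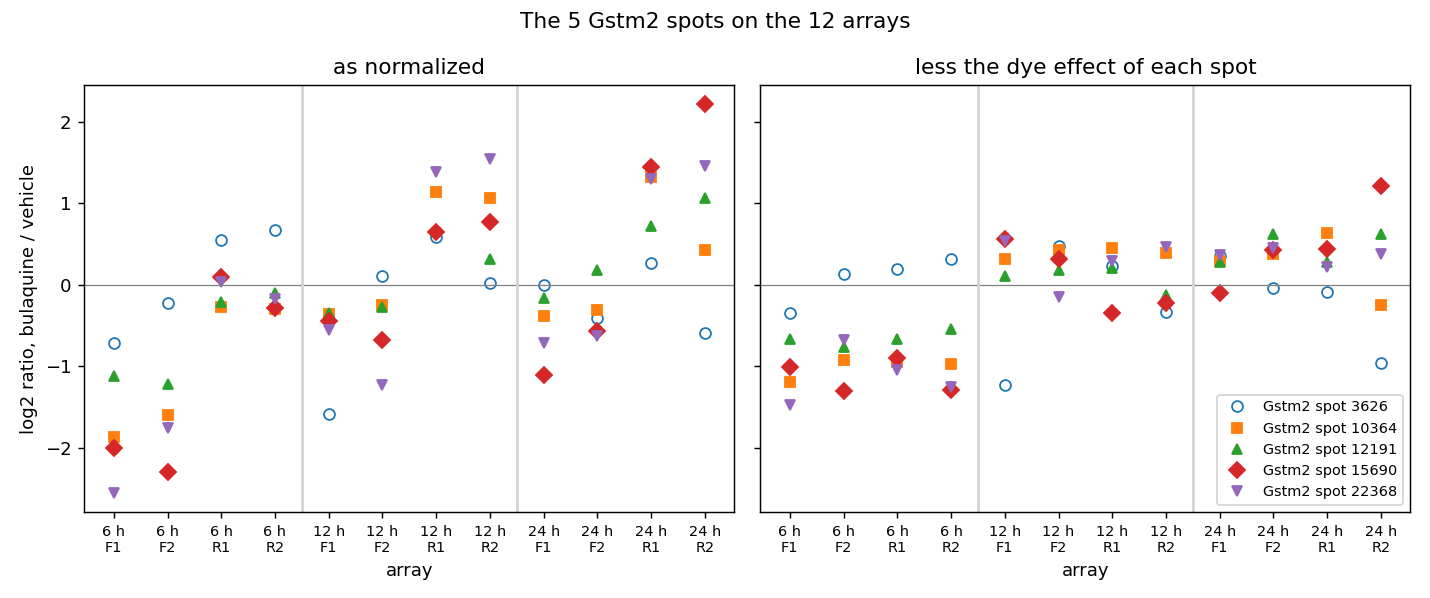
Log2 ratio of bulaquine over vehicle (y axis) of the 5 Gstm2 spots on each of the 12 arrays (x axis), as normalized on the left and with the dye effect of each spot taken off on the right. On the right the 4 brighter spots lie between -1.47 and -0.55 on the 6 h arrays and above that on the others, while the dimmest spot (open circles) does not follow them.

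The 4 brighter spots also moved together from array to array. Over the 12 arrays their 6 pairs had correlations of 0.872 to 0.945 in the log2 ratio, and of 0.716 to 0.907 with the dye effects taken off. The 4 pairs that include spot 3626 had correlations of 0.200 to 0.376, and of -0.517 to -0.0703 with the dye effects taken off. These are descriptions over arrays that the spots share, and 3 of the brighter spots share their accession with spot 3626. Spot 3626 is the member nearest the background. The mean of the 4 brighter spots, dye effects taken off, was -1.08, -0.92, -0.89 and -1.01 on the 6 h arrays, 0.38, 0.19, 0.15 and 0.12 on those of 12 h and 0.21, 0.47, 0.39 and 0.49 on those of 24 h. Each of the 8 later arrays thus lay above 0 and each 6 h array below it.

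At 12 h no Gstm2 spot was called. Spot 10364 read -0.36, -0.25, 1.14 and 1.06 on F1, F2, R1 and R2, with a fitted log2 ratio of 0.40 ± 0.13 (SE, adjusted p = 0.480). Spot 22368 read -0.55, -1.23, 1.38 and 1.54, with a fitted ratio of 0.29 ± 0.15 (adjusted p = 0.636). The Cy5 and Cy3 arrays lay on opposite sides of 0 in both. The fitted ratios of spots 12191, 15690 and 3626 were 0.09, 0.08 and -0.21. None of the 7 spots was called at 12 h, where 0.46% of all spots were.

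At 24 h the 4 brighter Gstm2 spots again had fitted ratios above 0, and none was called. Spot 12191 read -0.16, 0.18, 0.72 and 1.06 on F1, F2, R1 and R2, with a fitted ratio of 0.45 ± 0.10 (adjusted p = 0.117). Spot 10364 read -0.38, -0.31, 1.32 and 0.43, fitted at 0.27. Spot 22368 read -0.71, -0.63, 1.30 and 1.46, fitted at 0.35. Array F2 of spot 12191 was the single Cy5 array of these 3 spots above 0. Spot 15690 read -1.10, -0.57, 1.44 and 2.21 and had the widest span of the 7, with a fitted ratio of 0.50 ± 0.21 (adjusted p = 0.364), and spot 3626 was fitted at -0.18. None of the 7 spots was called at 24 h, where 0.477% of all spots were.

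The difference between the times was tested in the same fit. These contrasts use the 6 h arrays on which Gstm2 was noticed, and the 2 of them share those arrays, so they are not independent of the 6 h values or of each other. From 6 h to 12 h the log2 ratio of spot 10364 rose by 1.40 (SE 0.19, adjusted p = 0.0128) and that of spot 22368 by 1.40 (SE 0.21, adjusted p = 0.0237). Those were 2 of the 7 spots, or 28.6%, against 0.4% of all spots tested. Both are spots of Gstm2 listed under the same sequence, so they do not count as separate members. The differences of spots 15690 and 12191 were 1.20 (SE 0.30, adjusted p = 0.263) and 0.75 (SE 0.15, adjusted p = 0.106), and that of spot 3626 was -0.29. Leaving out 6 h array F1, 6 h array R1 or 12 h array R1 left 0 of the 7 called. Without 6 h R2, 12 h F1, 12 h R2 or 24 h F2 there was 1. With dye-swap pairs averaged the adjusted p became 0.242 for spot 10364 and 0.230 for spot 22368, and 0 were called. With the same pairs as a random block both spots stayed called.

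From 6 h to 24 h the log2 ratio rose by 1.47 in spot 22368 (SE 0.21, adjusted p = 0.0329), by 1.27 in spot 10364 (SE 0.19, adjusted p = 0.0339) and by 1.11 in spot 12191 (SE 0.15, adjusted p = 0.0320). These were 3 of the 7 spots, or 42.9%, against 0.187% of all spots tested. All are spots of Gstm2, 22368 and 10364 under the same listed sequence, so they do not count as separate members. Spot 15690 had the largest difference, 1.62 (SE 0.30, adjusted p = 0.108), which did not pass, and spot 3626 stood at -0.26. None of the 7 spots was called between 12 h and 24 h, where 0.179% of all spots were. Leaving out any 6 h array left 0 of the 7 called from 6 h to 24 h, as did leaving out 12 h F1, R1 or R2 or 24 h F2 or R1, and without 24 h F1 or 24 h R2 there was 1. With dye-swap pairs averaged the adjusted p of spots 22368, 10364 and 12191 became 0.347, 0.385 and 0.418, and 0 were called. With the same pairs as a random block these spots stayed called and spot 15690 was called as well (adjusted p = 0.0474). Over all fits tried, 27 at 6 h and 26 for each difference, the 4 brighter spots kept their sign in every one.

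**Figure D3:**
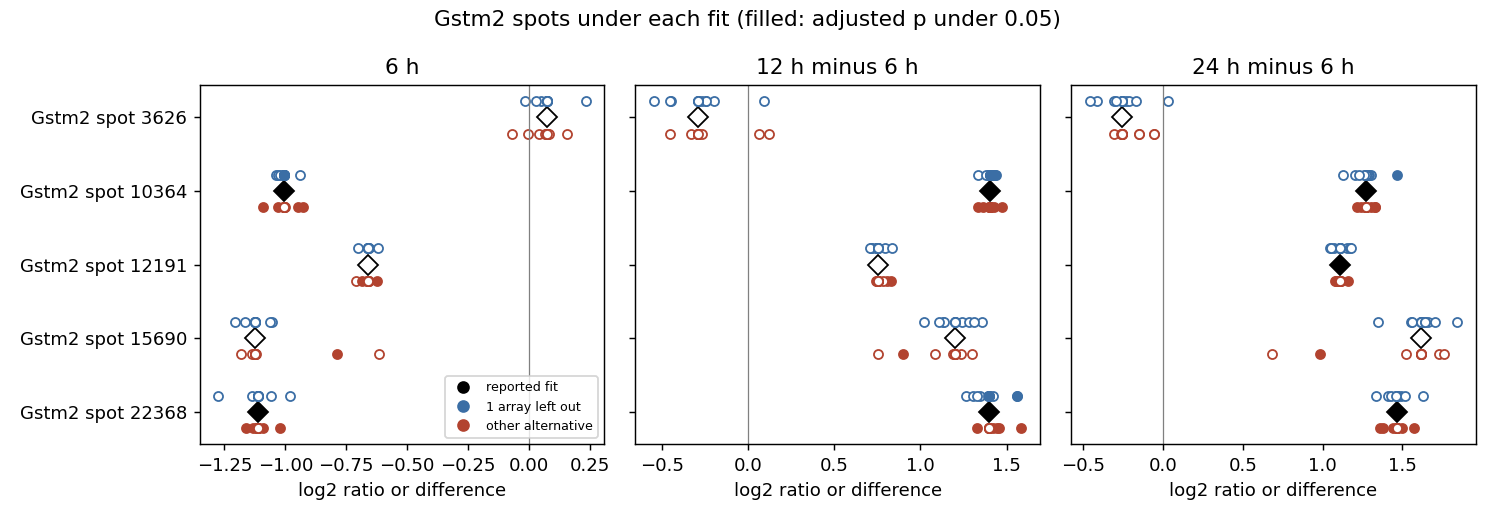
Fitted log2 ratio at 6 h and its difference from 6 h to 12 h and to 24 h (x axes) for the 5 Gstm2 spots (y axis), as reported (diamonds), with 1 array left out (upper circles) and under the other processing alternatives (lower circles), filled where the adjusted p was under 0.05. The 4 brighter spots keep their side of 0 under each fit shown, while over the panels together most of their circles are open. From 6 h to 12 h those of spot 10364 are mostly filled, 11 of 13 lower and 9 of 12 upper. Those of spot 22368 are filled in 8 of 13 and 5 of 12.

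Levels of each dye separately, after normalization between arrays, placed the bulaquine group of 6 h lowest of the 6 groups for each of the 4 brighter Gstm2 spots, level with vehicle at 24 h in spot 12191. For spot 10364 the mean log2 level was 13.84 ± 0.735 (SD, n = 4) with bulaquine at 6 h and 14.85 ± 0.448 with vehicle at 6 h. With vehicle it was 15.62 ± 0.32 at 12 h and 13.86 ± 0.809 at 24 h, and with bulaquine 16.02 ± 0.719 and 14.13 ± 1.09. The vehicle group of 24 h was thus as low as the bulaquine group of 6 h, and in this order of 6 levels all neighbours but those of vehicle at 6 h and at 12 h lay within the larger SD of the pair. Spots 12191, 15690 and 22368 gave the same order of groups. For spot 15690 the vehicle step from 12.32 at 6 h to 13.11 at 12 h was the one larger than the SD, and for spots 12191 and 22368 no step was. The levels of spot 3626 ran from 10.32 to 10.98, with every step within the SD and with bulaquine at 6 h highest. These levels come from different arrays at each time, and in liver tissue fewer cells of a type and less RNA per cell cannot be told apart.

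Gstt3, the theta-class member, read below 0 at 6 h and 12 h without passing the test. Its log2 ratios on F1, F2, R1 and R2 were -0.70, -0.99, -0.13 and 0.12 at 6 h, -0.68, -0.59, 0.26 and -0.031 at 12 h, and -0.28, -0.39, 0.49 and 0.47 at 24 h. The Cy5 arrays lay below the Cy3 arrays at each time, as in Gstm2. The fitted ratios were -0.42 ± 0.09 at 6 h (adjusted p = 0.287), -0.26 ± 0.09 at 12 h (adjusted p = 0.535) and 0.07 ± 0.09 at 24 h (adjusted p = 0.827). With the dye effect taken off, the 24 h arrays, between 0.0079 and 0.12, lay above all arrays of 6 h, between -0.58 and -0.28, and of 12 h, between -0.43 and -0.14. For how many of all spots tested this held was not computed. The difference from 6 h to 24 h was 0.50 (SE 0.13, adjusted p = 0.267) and was not called. Its levels ran from 12.39 with vehicle at 24 h to 13.77 with vehicle at 12 h, and no neighbouring groups differed by more than the larger SD.

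Mgst1, the membrane enzyme, was the brightest of the 7 spots and read above 0 on 10 of the 12 arrays. On F1, F2, R1 and R2 its log2 ratios were 0.40, 0.071, 0.29 and 0.27 at 6 h, 0.54, 0.64, 0.23 and -0.047 at 12 h, and 0.96, 0.59, 0.057 and -0.16 at 24 h. At 12 h and 24 h the Cy5 arrays lay above the Cy3 arrays, opposite to Gstm2. The fitted ratios were 0.26 ± 0.14 at 6 h (adjusted p = 0.810), 0.34 ± 0.14 at 12 h (adjusted p = 0.568) and 0.36 ± 0.14 at 24 h (adjusted p = 0.327), so none was called. The differences between times were at most 0.10 in size. Its levels ran from 15.42 with vehicle at 24 h to 16.49 with bulaquine at 12 h, each step within the larger SD.

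Over the 12 arrays, dye effects taken off, the log2 ratio of Gstm2, as the mean over its 5 spots, had a correlation of 0.723 with that of Gstt3 and of 0.241 with that of Mgst1, and Gstt3 and Mgst1 had one of 0.360. Among the other spots with a single symbol, those most like Gstm2 were of Hsp90aa1, a cytosolic chaperone (r = 0.931), 9930111J21Rik2 (0.925), Ftl1, the ferritin light chain (0.918), Rps14, a small-subunit ribosomal protein (0.917), and Fam8a1 (0.908). Most like Gstt3 were spots of Tubb4b, a beta tubulin (0.946), Actb, beta actin (0.939), Nemf (0.913), Pikfyve, a lipid kinase (0.896), and Htt, huntingtin (0.867). For Mgst1 they were of Rps3a1 (0.932), Paxbp1 (0.879), Rpl31 (0.869), Map3k14 (0.859) and Gm12338 (0.853), the first and the third of which encode ribosomal proteins. All these were picked as the highest out of 7829 tested spots with a single symbol, over 12 arrays. High values come in part from such picking, and none was tested. For Gstm2 the low 6 h values by which it was noticed also enter. Other spots of the genes so found often did not follow: those of Hsp90aa1 had correlations with Gstm2 of 0.707, 0.342, -0.32 and -0.208, and that of Rps14 one of 0.229. The order also depended on the dim Gstm2 spot 3626. With the mean taken over the 4 brighter Gstm2 spots, the highest were Gm1968 (0.944), Hsp90aa1 (0.938), Ccnd2, a cyclin (0.938), Rps10 (0.927) and Smad9 (0.925), so that Hsp90aa1 was the 1 gene in both sets of 5.

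Of the other glutathione transferases and their membrane relatives, 27 genes were listed, 7 were found on the array and 6, with 7 spots, were measured on all arrays. A gene with several tested spots entered the counts and medians of this and the following lists by the spot of smallest p at that time, which can differ between times. None of the 6 was called at 6, 12 or 24 h, where 0.102%, 0.46% and 0.477% of all spots tested were. In so short a list a count of 0 is near those shares. The median log2 ratio of the 6 genes was -0.09 at 6 h, 0.14 at 12 h and -0.25 at 24 h. The median of all spots was -0.00063, -0.014 and 0.0060. Gstm5, a mu-class relative of Gstm2, read -1.45, -1.57, 0.15 and -0.22 on F1, F2, R1 and R2 at 6 h, with a fitted ratio of -0.77 ± 0.55 (adjusted p = 0.856). At 24 h its ratio of -0.92 (adjusted p = 0.522) held 1 array, R2, at -3.29, with the other 3 between -0.51 and 0.47. Gstm4, also of the mu class, read 0.97, 0.91, 0.51 and 0.50 at 12 h, fitted at 0.72 ± 0.17 (adjusted p = 0.210), and stood at -0.02 at 6 h. The 2 spots of Gstp1, the pi-class enzyme, read -0.16 and -0.04 at 6 h, 0.40 and 0.18 at 12 h, and -0.38 and -0.07 at 24 h. Gsta4, of the alpha class, read -0.0076, -0.35 and -0.13 at the 3 times. Gsto1, of the omega class, reached 0.60 at 24 h (adjusted p = 0.322), and Gstcd, which carries a transferase-like domain, read -0.62 at 6 h and -0.61 at 24 h. A second Gsta4 spot, measured on 11 arrays, and Ptges, on 9, were not tested.

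**Figure D4:**
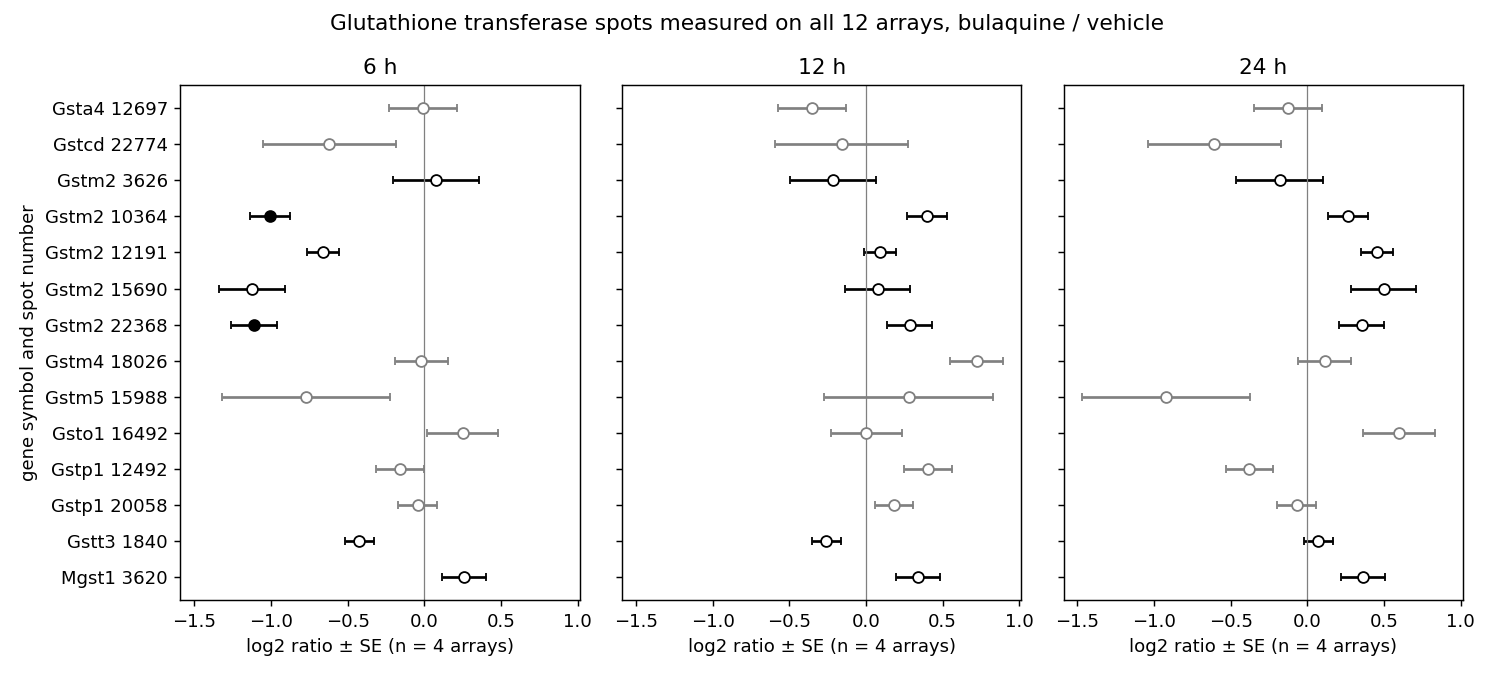
Fitted log2 ratio of bulaquine over vehicle with its standard error (x axis, n = 4 arrays) at 6, 12 and 24 h for the 14 glutathione transferase spots measured on all arrays (y axis), black for Gstm2, Gstt3 and Mgst1, grey for the others, and filled where the adjusted p was under 0.05. The filled points are Gstm2 spots 10364 and 22368 at 6 h.

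Of 23 listed genes that make, recycle and break down glutathione, 6 were tested. None was called at 6 h or 12 h, where 0.102% and 0.46% of all spots tested were. At 24 h 1 was called higher (16.7% of 6 genes, against 0.477% of all spots). The list was chosen with earlier results of these data known, so that share is a description only. Medians were -0.14, 0.09 and 0.10 at 6, 12 and 24 h. The called gene was Cth, cystathionine gamma-lyase, which releases the cysteine that glutathione is built from, at 0.66 ± 0.09 (adjusted p = 0.0149). Gclm, the modifier subunit of the rate-limiting synthesis enzyme, read -0.092 at 12 h (adjusted p = 0.929). Esd, which hydrolyses S-formylglutathione, read -0.25 at 6 h and 0.25 at 12 h, and Glo1, which uses glutathione to clear methylglyoxal, read -0.22 and 0.37, with its other spot at 0.063 and 0.0065.

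Other enzymes of the same defences were not called at 6, 12 or 24 h, where 0.102%, 0.46% and 0.477% of all spots tested were. In short lists a count of 0 is near those shares, so it says little about these genes. Of 25 peroxidase, glutaredoxin and thioredoxin genes 12 were tested and 0 called at any of the 3 times, with medians of 0.07, 0.10 and 0.22. Prdx4, a peroxiredoxin of the endoplasmic reticulum, read 0.33 at 6 h (adjusted p = 0.739) and 0.19 on its other spot, and Sod2, the mitochondrial superoxide dismutase, -0.28 (adjusted p = 0.784). Of 26 Nrf2 target genes outside the family 13 were tested and 0 called, with medians of -0.08, 0.12 and 0.04. Among them Ftl1 read -0.68 at 6 h (adjusted p = 0.112), with its 4 other spots between -0.59 and -0.32. Tkt, transketolase, read 0.91 at 24 h (adjusted p = 0.0744) on a spot of percentile 20.7 in brightness, while its other 3 spots read 0.57, 0.12 and 0.045. Txnrd1, thioredoxin reductase, has 1 tested spot and read 0.57 at 24 h (adjusted p = 0.218). The lists share a few genes, Txnrd1 being in both of the last. Of 36 other conjugating enzymes and exporters 4 were tested and 0 called, with medians of 0.22, -0.21 and -0.15. They included the exporter Abcc3, at 0.57 at 6 h (adjusted p = 0.784), and As3mt, an arsenic methyltransferase, at -0.64 at 12 h (adjusted p = 0.514) on one spot and 0.028 on its other. With every tested spot of these lists counted, Cth remained the 1 gene called at any of the 3 times.

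The tissue label was set against liver markers. The 6 hepatocyte markers tested were bright, at a median percentile of 96.6 in brightness, and their mean log2 ratio per array was -0.22 to 0.35 at 6 h, -1.74 to 0.45 at 12 h and -0.20 to 0.43 at 24 h. Of the 6, Fga, the fibrinogen alpha chain, was called higher at 6 h (0.72, adjusted p = 0.0438) and at 12 h (0.59, adjusted p = 0.047), and no other was called. At 12 h Apoa1 read -2.20 with a standard error of 1.15. The 3 macrophage and Kupffer cell markers tested, of 8 listed, read below 0 at 6 h as the brighter Gstm2 spots did: the fitted ratio was -0.84 for Mpeg1, -0.67 for Csf1r and -0.50 for Lyz2, with adjusted p of 0.693, 0.764 and 0.789. Their mean per array was -1.02 to -0.33 at 6 h, -1.03 to 0.48 at 12 h and -0.15 to 0.56 at 24 h. Of the 4 stellate cell markers tested, 3 read below 0 at 6 h, and their mean per array was -0.54 to -0.28. The 2 endothelial markers tested had a median of 0.26 at 6 h by the spot of smallest p, and of 0.02 over all their tested spots. Pecam1 read 0.50 on a spot of percentile 37.8 in brightness and -0.07 on its other spot, of percentile 93.7. Cdh5 read 0.02. Markers of 4 further cell types had 1 tested spot each, and none was called. The erythrocyte marker Car2 read -0.81 at 6 h, 0.22 at 12 h and 1.05 at 24 h, and the fat cell marker Plin1 -0.88, 0.29 and 1.12, both lowest at 6 h as the brighter Gstm2 spots were, with differences from 6 h to 24 h of 1.86 (adjusted p = 0.333) and 1.999 (adjusted p = 0.473). Their arrays spread widely, Car2 from -3.35 to 0.92 at 6 h and from 0.59 to 1.54 at 24 h. Plin1, at percentile 13.4 of brightness, ran from -2.26 to 0.64 at 6 h and from -1.37 to 3.15 at 24 h. The neutrophil marker S100a9 ran the other way, at 0.50, -0.47 and -0.24, and the lymphocyte marker Cd3e read -0.048, -0.12 and -0.43. Markers of bile duct, pancreas and muscle had no tested spot. The part of such cells in the Gstm2 values was not tested.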

How the data were processed

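The intensity columns deposited by the authors held foreground, background and background-corrected intensity for each dye, with a deposited signal-to-noise score per spot, for which no formula was at hand. Per the series' design text, images were read with ArrayVision v8.0 and the deposited log2 ratios were LOWESS-normalized in Avadis v4. As the measure of depth, an array's median score lay between 0.761 and 1.42 for Cy3 and between 0.467 and 1.34 for Cy5, 9.66% to 24.5% of spots stood at 0, and the number of arrays limits the precision.

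Here the corrected intensities were used, with 0 set to missing and log2(Cy5/Cy3) normalized by loess (span 0.3, 4 iterations) within each array. The deposited log2 ratios had an r of at least 0.998 with these values, unturned for dye. A single limma 3.58.1 fit (R 4.3.3) over all 12 arrays and 11749 spots took 1 coefficient per time, coded by dye orientation, and 1 dye effect per spot, with 8 residual degrees of freedom. Levels per dye used Aquantile. Scripts were tested on simulated data.

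The spot numbers and the annotation's probe numbers were paired by moving 48 blocks from row-wise to column-wise order of a grid. Mean intensities of spots of 1 gene then had a correlation of 0.20 (10476 pairs), against 0.0079 (10455 pairs) by number as deposited, and every gene name rests on this inferred order. The members and lists were chosen with earlier results of these data known. Every spot of the 3 genes is named. Of each list, called genes are named, and up to 4 tested genes with the largest ratio per time could be, of which the text gives some. Gclm and some further times and spots of named genes, and the cell type markers, are given outside this rule. For likeness, the 5 spots of highest r are named. Alternatives changed the background correction, normalization, spot filter, dye term, blocking and arrays, and the dye effect for each time was added after seeing the data. Same-named arrays of different times had correlations of -0.219 to -0.0771 in their deviations. Arrays of other names but the same orientation could do likewise, as 6 h F1 and 12 h F2 (-0.16) and 6 h R1 and 12 h R2 (-0.165) did. A dye effect shared by all times makes such values negative in itself, so they cannot decide whether the names paired samples.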

Additional observations from a re-analysis of the deposited data

Results flagged for a closer look

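A difference between times passed the test for 3 of the 5 Gstm2 spots, which is why they are listed again here. From 6 h to 12 h the log2 ratio of bulaquine over vehicle rose by 1.404 in spot 10364 and by 1.398 in spot 22368. From 6 h to 24 h it rose by 1.272 in spot 10364, by 1.112 in spot 12191 and by 1.466 in spot 22368. In each of the 3 spots all 4 array names read higher at the later time, a trait not counted over all spots. The 6 h arrays are common to all these differences. None of them passed with dye-swap pairs averaged, at adjusted p of 0.230 to 0.418, while all passed with the pairs as a random block. Dixon's criterion is the gap of the farthest array as a share of the range. In the 21 sets of 4 arrays, 7 spots at 3 times, it set 0 arrays apart. The ratios were tested with the dye effect kept, which splits many sets into a Cy5 pair and a Cy3 pair. In such sets the criterion can hardly set 1 array apart, and its usual rate of about 1 of 20 sets does not hold.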

How the results depend on the processing

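Among the 7 spots, none was called at 12 h or between 12 h and 24 h under any alternative run. The 2 calls at 6 h became 4 without background correction and 0 with spots on at least 3 of 4 arrays, without a dye effect, with each time fitted alone, with dye-swap pairs averaged, with the replicate block by array name, and with a dye effect for each time, and were 0 to 1 with 1 array left out. Over all spots tested, the 12 calls at 6 h of the reported fit became 0 with each time fitted alone and with pairs averaged. They became 2 with the replicate block, and 6 without a dye effect or with spots on at least 3 of 4 arrays. With 1 array left out they were 2 to 9. Under those settings few or no spots of the whole array were called. For the differences between times such counts over all spots were not computed. At 24 h loess by blocks and the fit without the dimmest 30% of spots gave 1 call, of spot 12191. The 2 differences from 6 h to 12 h became 1 with spots on at least 3 of 4 arrays, with the replicate block and with a dye effect for each time, 0 without a dye effect and with pairs averaged, and 0 to 2 with 1 array left out. The 3 differences from 6 h to 24 h became 0 under each of these 5 settings, and 0 to 2 with 1 array left out. The cause was not tested. With dye-swap pairs as a random block instead of averaged, the calls of the reported fit were kept. The correlation within pairs in that fit was -0.158. Whether the array names paired the samples could not be decided, so the calls lost under the replicate block are given without a reading. Over the 14 alternatives the 6 h ratio of spot 10364 lay between -1.09 and -0.93 and was called in 8, and that of spot 22368 lay between -1.16 and -1.02 and was called in 8, while spot 15690 moved from -1.12 to between -1.18 and -0.62. Signs turned in values near 0 that were never called. Spot 3626 gave -0.0033 at 6 h, 0.062 at 12 h and 0.065 for the difference from 6 h to 12 h without background correction, and -0.067, 0.054 and 0.12 with normexp. Loess by blocks gave -0.060 for Gstt3 at 24 h, and array weights -0.043 for spot 15690 at 12 h. With 1 array left out, spot 3626 ranged from -0.016 to 0.23 at 6 h, from -0.47 to 0.16 at 12 h, from -0.38 to 0.11 at 24 h, from -0.55 to 0.090 for 6 h to 12 h and from -0.46 to 0.034 for 6 h to 24 h, and spot 15690 from -0.10 to 0.24 at 12 h. Differences between times could not be had with each time fitted alone.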
